A study of Mus musculus with 18 samples.

Results

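H3K4me3 peaks of the Mettl3 knockout line KO2 were compared with those of the Mettl3 Control in mouse embryonic stem cells, using the 2 peak lists of each line, 4 of the 18 libraries of the series. The libraries are those of H3K4me3 whose genotype is given as Mettl3_Control or Mettl3_KO2. Mettl3 encodes the catalytic subunit of the complex that places N6-methyladenosine (m6A) on RNA, and the series asked how this RNA mark bears on chromatin. Both lines have a C57BL/6 background and were grown with 1000 U/ml LIF, 3 µM of the GSK3 inhibitor CHIR99021 and 1 µM of the MEK inhibitor PD0325901, conditions that hold embryonic stem cells in a naive state. Formaldehyde-fixed chromatin was precipitated with the same rabbit anti-H3K4me3 antibody in every library, together with spike-in chromatin and its antibody. How the Mettl3 gene was disrupted, whether KO2 is a single clone, and whether replicates came from separate cultures are not given in the sources used here, so a p-value here covers no more than how these libraries vary, which can be technical variation. The 2 H3K4me3 libraries of the other knockout line, KO1, entered the models below to share one estimate of the spread. They also counted in the minimum mean a gene or region needed to be tested and in quantile normalization. Their peaks further helped to outline the regions between genes and to place windows where no start is listed.

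H3K4me3 is trimethylation of lysine 4 of histone H3. SET1 and MLL complexes place it, KDM5 enzymes remove it, and it is densest on the nucleosomes just downstream of active and CpG-rich promoters. In embryonic stem cells some peaks extend far beyond the promoter into the gene body, and developmental promoters often carry the mark while their genes are silent. H3K27ac, acetylation of lysine 27 of the same histone, marks active promoters and enhancers and was mapped in other libraries of the same lines.

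The lists held 83644 and 81608 peaks in Control and 72303 and 66483 in KO2. Read totals are not part of the lists, so depth is unknown, and a peak missing from a list shows only that the authors' caller did not pass it there. By the bases that both lists of a pair covered, divided by those that either covered, the replicates overlapped by 0.643 in Control and 0.648 in KO2, and a Control and a KO2 library by 0.517 to 0.562. KO2 replicate 2 covered less than KO2 replicate 1 in every class of place below, and this gap is larger than that between the Control libraries. Of 10 embryonic stem cell markers 9 had H3K4me3 in their promoter window in each of the 4 libraries, with median coverage from 89.9% to 94.7%. The other marker, Esrrb, was at 0% in all 4. Of 10 fibroblast markers, which feeder cells would bring, 8 had a window, and 3 to 5 of them had any H3K4me3, with medians from 0% to 7.75%. The collagen genes Col1a2 and Col3a1 and Postn were at 0 in all 4 libraries, and Col1a1 was at 5.90% and 0% in Control and 8.57% and 0% in KO2. Thy1 was at 5.60% and 0% against 18.5% and 11.2%, Twist2 at 22.1% and 11.4% against 17.7% and 16.8%, Pdgfra at 4.85% and 6.70% against 6.92% and 7.92%, and Vim, which stem cells also express, at 74.9% and 58.1% against 69.6% and 63.1%. The part of such cells in the results was not tested. Chromosome 8 had the lowest ratio of covered length between the lines, 0.661 in KO2 relative to Control against 0.801 over all chromosomes, and chromosome 14 was next at 0.666. Genes on chromosome 8 are marked as such.

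Mettl3, the targeted gene, was 65.4% and 64.2% covered in the Control libraries and 48.0% and 44.1% in KO2, over the window of 2 kb on each side of its start (GRCm38 chromosome 14, minus strand, position 52305124). The groups did not overlap, and the difference was −18.8 percentage points ± 3.62 (SE; limma adjusted p = 0.0268), which no longer passed after quantile normalization (−12.8 points, adjusted p = 0.0724) or with any of the 6 libraries left out. A mark at the start does not show whether the gene is disrupted and is no check of the genotype.

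The starts of 7 genes that the results below turn on are shown first, because their sequence differs in the density of CG dinucleotides, the feature of DNA with which H3K4me3 is known to go. Each sequence is from RefSeq (GRCm38.p6) and runs 5′ to 3′ on the gene's strand from 250 bases before to 50 after the listed start. Capitals mark each CG, which reads the same on both strands. Ehmt1 (chr2:24919560-24919859, minus strand) and Snapc3 (chr4:83417474-83417773, plus strand) lost H3K4me3 inside the gene in KO2. Glis3 (chr19:28680028-28680327, minus strand) and Stard8 (chrX:99042331-99042630, plus strand) gained it there. Pgpep1l (chr7:68264184-68264483, minus strand) and Ldhb (chr6:142507908-142508207, minus strand) gained it around the start, and Meg3 (chr12:109540746-109541045, plus strand) lost it.
Ehmt1: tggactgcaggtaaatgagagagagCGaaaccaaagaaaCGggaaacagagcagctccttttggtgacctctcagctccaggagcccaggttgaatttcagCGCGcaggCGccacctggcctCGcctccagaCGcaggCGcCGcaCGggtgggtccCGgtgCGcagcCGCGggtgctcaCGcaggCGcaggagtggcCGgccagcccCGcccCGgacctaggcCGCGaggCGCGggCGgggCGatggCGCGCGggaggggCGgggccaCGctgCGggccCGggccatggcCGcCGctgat
Snapc3: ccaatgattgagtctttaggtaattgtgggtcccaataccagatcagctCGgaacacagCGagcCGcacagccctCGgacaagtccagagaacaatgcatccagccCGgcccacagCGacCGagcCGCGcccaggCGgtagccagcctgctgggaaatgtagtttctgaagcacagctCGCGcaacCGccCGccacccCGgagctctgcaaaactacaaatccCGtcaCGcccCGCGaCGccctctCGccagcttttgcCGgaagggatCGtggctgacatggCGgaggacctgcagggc
Glis3: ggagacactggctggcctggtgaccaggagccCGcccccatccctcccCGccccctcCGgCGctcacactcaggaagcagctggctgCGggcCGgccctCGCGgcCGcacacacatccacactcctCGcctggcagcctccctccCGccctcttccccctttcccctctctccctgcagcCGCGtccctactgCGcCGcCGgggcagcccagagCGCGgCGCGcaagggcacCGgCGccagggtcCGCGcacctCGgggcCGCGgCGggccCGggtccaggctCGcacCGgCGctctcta
Stard8: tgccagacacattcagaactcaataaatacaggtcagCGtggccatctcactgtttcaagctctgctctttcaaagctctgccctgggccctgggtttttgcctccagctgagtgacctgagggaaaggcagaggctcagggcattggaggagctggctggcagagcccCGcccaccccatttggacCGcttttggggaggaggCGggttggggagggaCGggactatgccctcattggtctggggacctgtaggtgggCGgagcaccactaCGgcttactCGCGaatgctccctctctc
Pgpep1l: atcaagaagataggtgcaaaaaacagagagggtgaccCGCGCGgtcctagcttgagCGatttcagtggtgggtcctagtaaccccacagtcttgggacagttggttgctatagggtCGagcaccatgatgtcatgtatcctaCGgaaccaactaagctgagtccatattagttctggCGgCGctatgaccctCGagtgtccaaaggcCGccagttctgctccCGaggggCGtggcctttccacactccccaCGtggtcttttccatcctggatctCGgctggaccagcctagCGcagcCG
Ldhb: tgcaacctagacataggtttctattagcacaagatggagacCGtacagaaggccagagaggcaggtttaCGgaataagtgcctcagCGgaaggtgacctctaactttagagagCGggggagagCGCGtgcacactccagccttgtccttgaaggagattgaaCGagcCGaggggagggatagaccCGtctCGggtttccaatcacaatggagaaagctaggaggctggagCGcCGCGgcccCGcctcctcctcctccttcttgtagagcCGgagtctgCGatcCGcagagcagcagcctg
Meg3: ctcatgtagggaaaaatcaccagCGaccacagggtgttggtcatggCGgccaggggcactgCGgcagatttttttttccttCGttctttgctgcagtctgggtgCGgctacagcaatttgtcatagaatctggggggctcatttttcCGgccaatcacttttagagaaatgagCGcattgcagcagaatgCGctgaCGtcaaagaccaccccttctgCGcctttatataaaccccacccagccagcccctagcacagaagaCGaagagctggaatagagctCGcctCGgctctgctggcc
The number of CG was 34 at Ehmt1, 24 at Snapc3, 32 at Glis3, 9 at Stard8, 16 at Pgpep1l, 17 at Ldhb and 13 at Meg3. Over the 27025 genes with a listed start the median was 7 CG in 300 bases, 94.2% held at least 1, 46.2% held at least 9 and 7.47% held at least 34. Those include noncoding genes and genes without H3K4me3. Among the genes tested below that have a listed start, the median was 22 CG for the test around starts and 24 for that inside genes.

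In ratio the largest change was inside genes. Peaks were divided into those at gene ends (within 2.5 kb of either end of a protein-coding gene), inside genes (further in) and between genes. Inside genes the peaks covered 28.6 and 27.4 Mb in the Control libraries and 19.3 and 14.8 Mb in KO2, so both KO2 libraries lay below both Control libraries. The means were 28.0 ± 0.831 Mb and 17.1 ± 3.18 Mb (SD, n = 2), a ratio of 0.610. In bulk chromatin a mark on fewer cells and less of it per cell cannot be told apart. At gene ends the lists covered 22.5 and 22.1 Mb in Control and 21.5 and 19.4 Mb in KO2, a ratio of 0.917, but with gene ends drawn at 1 kb the log2 ratio was −0.000123. Between genes the order turned, with 7.13 and 6.79 Mb in Control and 9.22 and 7.42 Mb in KO2, a ratio of 1.19. In each of the 3 places the groups did not overlap, and the exact 2-sided permutation test over the 4 libraries gave p = 0.333, which is the smallest that 2 against 2 allows. Counts of peaks followed the same order, with 45636 and 44317 peaks inside genes in Control against 32229 and 28365 in KO2, and 13860 and 13358 between genes against 16495 and 14707.

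**Figure D1:**
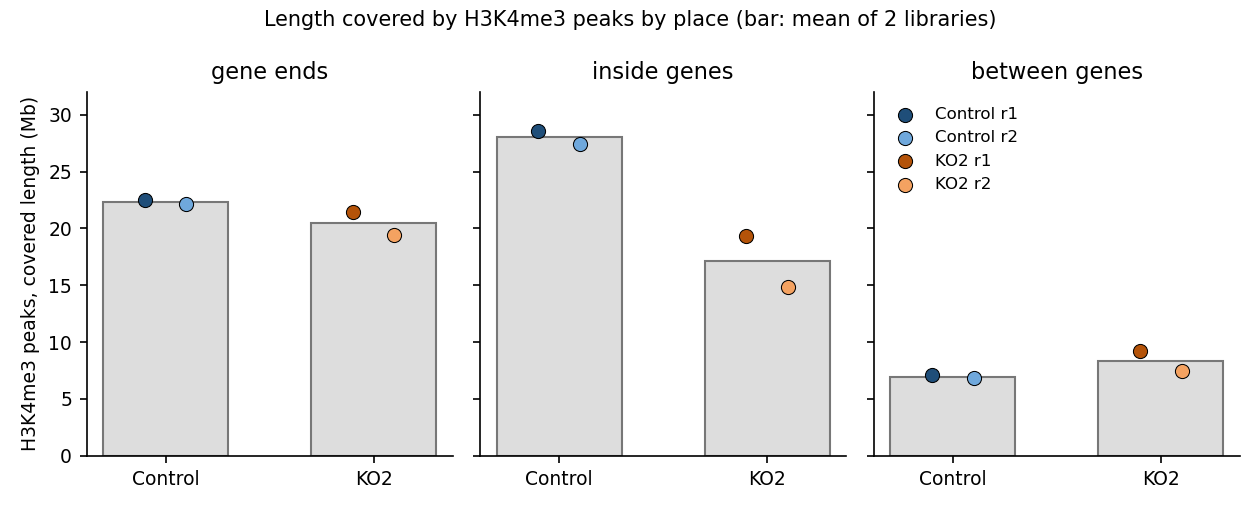
Length of genome covered by H3K4me3 peaks (Mb, vertical axis) at gene ends, inside genes and between genes in each of the 4 libraries (points), with the mean of the 2 libraries of a line as a bar. Inside genes the KO2 libraries sit at 19.3 and 14.8 Mb, below the Control libraries at 28.6 and 27.4 Mb, and between genes they sit above them.

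KO2 had fewer peaks inside genes and fewer wide ones, while the median width there overlapped between the lines. The median width of a peak inside genes was 318 and 317 bp in Control and 329 and 303 bp in KO2, with no order between the lines. Peaks of at least 5 kb numbered 834 and 763 over the genome in Control and 439 and 209 in KO2. Inside genes such wide peaks numbered 649 and 596 in Control and 284 and 127 in KO2, a ratio of means of 0.330. At gene ends they numbered 146 and 134 against 111 and 61. Between genes the counts of 39 and 33 in Control and 44 and 21 in KO2 overlapped.

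Around gene starts, H3K4me3 in KO2 differed little from Control close to the start and was less frequent further downstream. This was read over 7948 protein-coding genes of at least 20 kb with a listed start. From the start to 1 kb into the gene, peaks covered 57.7% and 57.0% of the bases in Control and 58.2% and 56.0% in KO2, and the groups overlapped. In the 1 kb before the start KO2 was slightly higher without overlap, at 33.5% and 30.9% against 30.8% and 30.4% in Control, a ratio of 1.05. From 1 to 2.5 kb into the gene coverage was 25.9% and 25.3% in Control and 19.8% and 16.9% in KO2. From 2.5 to 5 kb it was 14.6% and 14.1% against 9.01% and 6.99%, a ratio of 0.558. The ratio was 0.538 from 5 to 10 kb and 0.543 from 10 to 20 kb into the gene. Further upstream it was below 1 but nearer to it, with 0.785 from 5 to 2.5 kb before the start and 0.877 from 20 to 10 kb before it. At the far end of the same genes coverage was 2.16% and 2.13% in Control and 2.28% and 1.91% in KO2. H3K27ac peaks covered more in KO2 in the same bases: from 2.5 to 5 kb into the gene they covered 0.766% and 0.782% in Control and 2.79% and 2.57% in KO2.

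**Figure D2:**
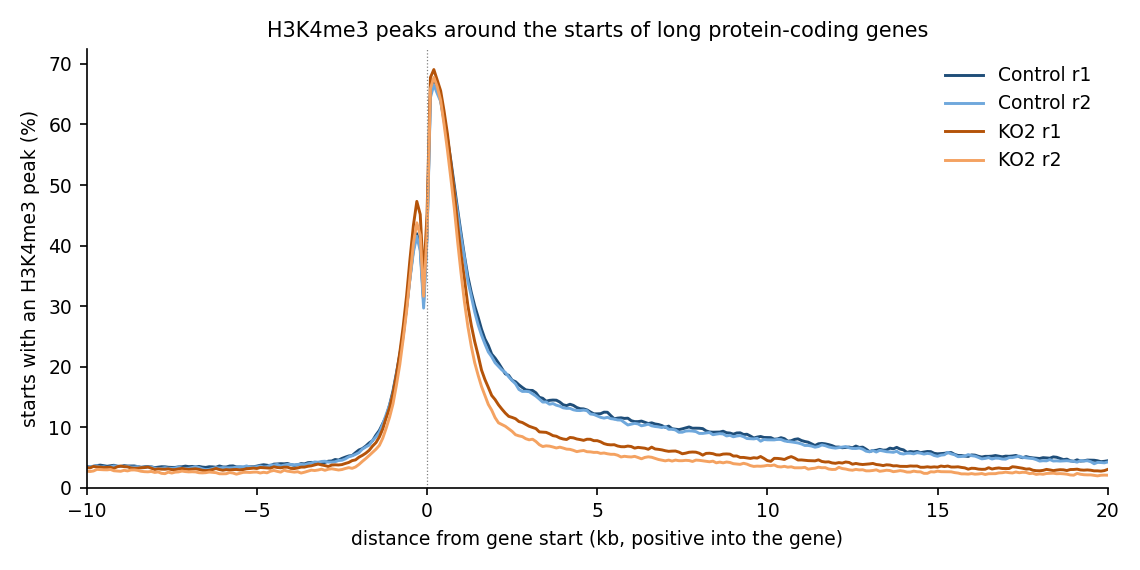
Percent of 7948 starts of protein-coding genes of at least 20 kb that lie under an H3K4me3 peak (vertical axis) by distance from the start (kb, positive into the gene), 1 line per library. At 0.2 kb both KO2 lines lie slightly above the Control lines (69.1% and 67.8% against 67.4% and 66.5%), and further downstream they fall below, where at 5 kb into the gene the Control libraries are at 12.2% and 11.9% and the KO2 libraries at 7.79% and 5.86%.

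Presence of the mark at starts was nearly the same in the 2 lines. Of 17492 protein-coding starts, 10532 and 10503 had a peak within 1 kb in Control and 10687 and 10529 in KO2, and 10100 had one in all 4 libraries. A peak in both Control libraries and neither KO2 library was found at 69 of these starts, and the reverse at 106. Starts of long noncoding RNAs away from protein-coding genes had a peak at 545 and 528 of 5721 in Control and at 656 and 600 in KO2. There 8 starts were marked in both Control libraries alone and 52 in both KO2 libraries alone.

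Per gene, the length covered inside the gene was fitted for 3174 genes with limma on log2(bp + 500), which understates the change of low values. KO2 was lower at 1706 genes, which is 53.7% of those tested, and higher at 185, which is 5.83% (adjusted p under 0.05). In 2242 genes (70.6%) both KO2 libraries lay below both Control libraries, and in 379 (11.9%) above. The median gene changed by −0.66 on this scale, and where a change is printed on this scale its value relative to that shift follows. Quantile normalization, which forces the 6 libraries to the same distribution and so takes the shift out, gave 952 higher and 866 lower. All of those 866 were among the 1706, and all of the 185 higher genes remained higher. Without the 173 tested genes of chromosome 8, where 72.3% were lower, the counts were 1581 lower and 176 higher of 3001. With each of the 6 libraries left out in turn, between 984 (without Control replicate 1) and 2026 genes were lower, and 909 of the 1706 were lower every time. Without Control replicate 2 the count was 1132. Higher genes numbered 113, 108 and 113 without Control replicate 1, Control replicate 2 and KO2 replicate 1.

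Klf12, which encodes a Krüppel-like zinc-finger repressor, had 9770 and 9550 bp of H3K4me3 inside the gene in Control and 130 and 0 bp in KO2. It lies on chromosome 14, where 70.6% of 109 tested genes were lower. The 2 KO2 libraries were almost without the mark there, and the difference was −4.18 ± 0.261 (SE; limma adjusted p = 0.000215), which is −3.52 relative to the median gene. No H3K4me3 lay in the window of its listed start in any of the 4 libraries. Ehmt1 encodes GLP, a methyltransferase of lysine 9 of histone H3. Its inside length was 9083 and 10265 bp in Control and 0 and 863 bp in KO2 (−3.62 ± 0.502, or −2.97 relative to the median gene, adjusted p = 0.000854). Around its CG-rich start, shown above, coverage was 63.9% and 64.7% in Control and 59.7% and 51.5% in KO2, which did not pass the test. Snapc3, a subunit of a complex that activates small nuclear RNA genes, had 7350 and 8104 bp inside the gene in Control and 162 and 334 bp in KO2 (−3.47 ± 0.290, relative −2.81, adjusted p = 0.000215). Prdm2, a PR-domain zinc-finger gene, had 9691 and 6629 bp against 331 and 36 bp, and its window, placed by the mark inside the gene, also fell, from 93.6% and 91.4% to 62.9% and 43.0%. Ccny, the gene of cyclin Y, had 9676 and 9423 bp in Control and 997 and 0 bp in KO2.

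The other 3 of the 8 largest falls lie on chromosome 8. Tfdp1, the dimerization partner of E2F factors, had 10918 and 13714 bp in Control and 229 and 0 bp in KO2, the largest fall past the threshold (−4.40 ± 0.286, relative −3.74, adjusted p = 0.000215). Coverage of its promoter window was 58.1% and 52.99% in Control and 55.4% and 55.3% in KO2. Sfrp1, a secreted Wnt antagonist, had 5785 and 7173 bp in Control and was at 0 in both KO2 libraries, while its window, placed by the mark inside the gene, was between 88.9% and 93.2% covered in all 4. Gsr, glutathione reductase, had 9446 and 8348 bp against 210 and 319 bp. Each of the 8 kept its call with any of the 6 libraries left out and in every other setting tried.

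**Figure D3:**
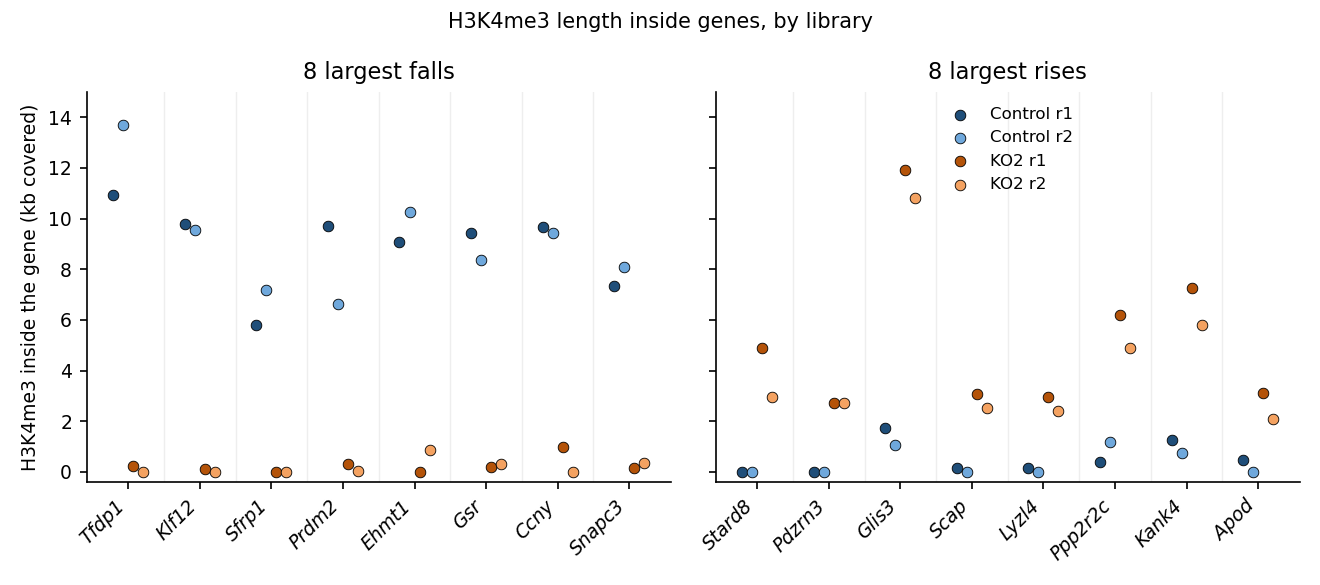
Kilobases covered by H3K4me3 peaks inside the gene (vertical axis, linear) for the 8 genes with the largest falls and the 8 with the largest rises, 1 point per library. Control and KO2 points do not overlap in any of the 16 genes, which is how they were chosen: the falls start at 5785 bp or more in Control and end at 997 bp or less in KO2.

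Rises inside genes were fewer. Glis3, a zinc-finger transcription factor gene, had 1745 and 1052 bp in Control and 11925 and 10814 bp in KO2, a difference of 2.67 ± 0.218 (adjusted p = 0.000215) and 3.32 relative to the median gene. Stard8, which encodes a GTPase-activating protein with a START lipid-binding domain, was at 0 in both Control libraries and at 4899 and 2952 bp in KO2. Pdzrn3, a ubiquitin ligase gene, was likewise at 0 in Control and had 2711 and 2733 bp in KO2. Kank4, an ankyrin-repeat gene, had 1275 and 735 bp against 7250 and 5817 bp, and Ppp2r2c, a regulatory subunit of protein phosphatase 2A, 380 and 1186 bp against 6191 and 4899 bp. Scap, the escort protein of the SREBP transcription factors, had 159 and 0 bp in Control and 3080 and 2519 bp in KO2. Lyzl4, a lysozyme-like gene, and Apod, the gene of apolipoprotein D, completed the 8, with 2948 and 2385 bp and with 3099 and 2095 bp in KO2. These 8 calls also held without each library and in every other setting.

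H3K27ac, which the choice of these genes did not use, is given beside them, with no test between the 2 sets. The H3K27ac lists were longer in KO2, with 65398 and 61383 peaks against 29973 and 32957 in Control, so a rise of H3K27ac was common, and its part in the result was not tested. Inside Glis3 it covered 2178 and 1729 bp in Control and 18528 and 19622 bp in KO2. Inside Stard8 it covered 0 and 150 bp in Control and 6811 and 6500 bp in KO2, and each of the other 6 risers had at least 2238 bp in both KO2 libraries and at most 2188 bp in Control. Of the 8 falls, Klf12, Prdm2 and Ccny had no H3K27ac inside the gene in any of the 4 libraries. Tfdp1 had 286 and 377 bp in Control and 258 and 0 bp in KO2, and Sfrp1 0 and 211 bp against 229 and 0 bp. Ehmt1 had none in Control and 282 and 264 bp in KO2, and Gsr none in Control and 0 and 272 bp in KO2. Snapc3 held the most, with 2185 and 2192 bp of H3K27ac in Control and 151 and 631 bp in KO2. Over all 1706 genes that were lower in H3K4me3, the median H3K27ac length inside the gene was 104.5 bp in Control and 930.5 bp in KO2. Over the 185 that were higher it was 701.5 and 4271 bp, and over all 3174 tested 287.8 and 1613 bp. H3K27ac thus covered more bases inside the median gene in KO2 in all 3 sets, and these medians were not tested against each other.

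The genes that fell were long in H3K4me3 in Control and those that rose were short, as the test itself favours. The 1706 lower genes had median inside lengths of 6684 and 6499 bp in Control and 2645 and 1794 bp in KO2, and the 185 higher genes had 1275 and 1249 bp against 3562 and 2813 bp. Their median gene length was 49.2 kb and 100.6 kb, and that of all genes tested 51.8 kb. The 300 bases at the start held a median of 26 CG in the lower genes, 19 in the higher genes and 24 in all tested, counted over the 82.2%, 88.1% and 83.5% with a listed start. Of the 1706 lower genes 1635 had a promoter window in the test below, of which 147 were lower and 1 was higher there. Of the 185 higher genes 152 did, of which 14 were higher and 1 was lower. Of the 1104 genes with a window and no call inside the gene, 49 were lower and 18 higher around the start, and over all genes tested there 5.81% were lower and 1.33% higher.

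Gene lists were described by counts beside the 53.7% lower and 5.83% higher of all genes tested, and by the list median relative to that of all genes. Among genes of histone acetylation, 11 of the 13 tested were lower inside the gene, and the median was −1.58, or −0.93 relative to all genes tested. After quantile normalization 10 were lower. Ep300, the p300 acetyltransferase that writes H3K27ac, had 9795 and 6388 bp in Control and 1087 and 521 bp in KO2 (−2.73 ± 0.293, relative −2.07, adjusted p = 0.000363). Hdac4, a class IIa deacetylase, had 5830 and 4262 bp against 1340 and 297 bp. Kat6a, the MOZ acetyltransferase (chromosome 8), had 16392 and 13070 bp against 4580 and 2316 bp.

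Among Polycomb genes, which write and read the repressive marks H3K27me3 and H2AK119ub, 10 of 17 were lower. After quantile normalization 6 were lower and 6 higher, and the list median was 0.10 relative to all genes tested. Ezh2, the H3K27 methyltransferase, had 10236 and 10564 bp in Control and 2337 and 296 bp in KO2 (−2.86 ± 0.496, relative −2.20, adjusted p = 0.0021). Phc1, a subunit of Polycomb repressive complex 1, had 11112 and 11133 bp against 3027 and 2321 bp, and Pcgf3, of a variant form of that complex, 4444 and 3501 bp against 636 and 381 bp. Among genes of the m6A machinery 12 of 17 were lower and 1 was higher, and after quantile normalization 2 were lower and 3 higher. The median of that list was −0.23 relative to all genes tested. Ythdf3, an m6A reader, had 9314 and 7264 bp in Control and 2715 and 1446 bp in KO2 (−1.80 ± 0.287, relative −1.15, adjusted p = 0.00145), and Mettl16, a separate m6A methyltransferase, 7535 and 7104 bp against 2872 and 1574 bp. The riser was Igf2bp2, an RNA-binding protein that reads m6A, at 3385 and 2995 bp against 6633 and 6219 bp, named after its value was seen. Among enzymes and subunits of H3K4 methylation and demethylation 5 of 13 were lower and 1 was higher, and 3 and 4 after quantile normalization. Their median was 0.10 relative to all genes tested. Kmt2a, the MLL1 methyltransferase, had 7367 and 4064 bp in Control and 2045 and 743 bp in KO2, and Dpy30, a core subunit of these complexes, 7153 and 7521 bp against 3463 and 2322 bp. The window of the listed start of Dpy30 held no H3K4me3 in any Control or KO2 library, and whether another start lies inside was not checked. Smyd3, named after its value was seen, was the riser at 3964 and 4622 bp against 10175 and 8027 bp.

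Naive pluripotency genes had a median of −0.57, or 0.08 relative to all genes tested, so as a list they lay close to all genes. Of 19 tested 9 were lower, and after quantile normalization 3 were lower and 7 higher. Tet1, a dioxygenase that oxidizes methylated cytosine, had 50116 and 48514 bp in Control and 27607 and 20438 bp in KO2 (−1.04 ± 0.160, relative −0.38, adjusted p = 0.00131). Lin28a, an RNA-binding regulator of let-7 microRNAs, had 4512 and 4519 bp against 1634 and 1493 bp, and Stat3, the transcription factor downstream of LIF, 5620 and 3442 bp against 1623 and 840 bp. Nanog, a core pluripotency factor, had 2143 bp in each of the 4 libraries, and its promoter window was 100% covered in all 4. A stretch covered over its whole length would give such equal values, and whether it was so covered was not checked. Nanog may thus have had no room to rise, and its equal length is no evidence that the mark was unchanged. Esrrb, a nuclear receptor of the same network, had 52593 and 51719 bp against 49230 and 46033 bp (limma adjusted p = 0.348). The window of its listed start held no H3K4me3 in any of the 4 libraries. Whether another start lies inside Esrrb, whose mark would then count as inside the gene, was not checked. Neither was called, and both were named after their values were seen.

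In the other lists with at least 7 genes tested, 7 of 15 genes of Wnt, Nodal, BMP and FGF signalling were lower and 1 was higher, and 5 of 8 proteasome genes, 5 of 11 of DNA methylation, 5 of 10 housekeeping genes, 4 of 12 p53 targets, 4 of 13 of glycolysis, 1 of 7 of formative pluripotency and 1 of 9 imprinted genes were lower. In the other direction 2 imprinted and 2 glycolysis genes were higher. Relative to all genes tested the medians of these lists were, in the order just given, 0.33, −0.39, 0.0034, 0.15, 0.32, 0.37, 0.36 and 0.42. After quantile normalization 5 signalling genes were lower and 6 higher, 3 proteasome genes were lower, 3 genes of DNA methylation were lower and 2 higher, and 1 housekeeping gene was lower and 3 higher. Smad4, the common SMAD of TGF-β and BMP signalling, had 5659 and 6644 bp in Control and 708 and 792 bp in KO2, and Psmd14, the deubiquitinase of the proteasome lid, 7035 and 6810 bp against 791 and 150 bp. Grb10, an imprinted adaptor of the insulin receptor, went the other way, from 530 and 623 bp to 3665 and 2235 bp (1.65 ± 0.281, relative 2.31, adjusted p = 0.00197). Quantile normalization left no lower call among the formative, imprinted, p53 and glycolysis genes and gave 3, 6, 6 and 5 higher ones.

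**Figure D4:**
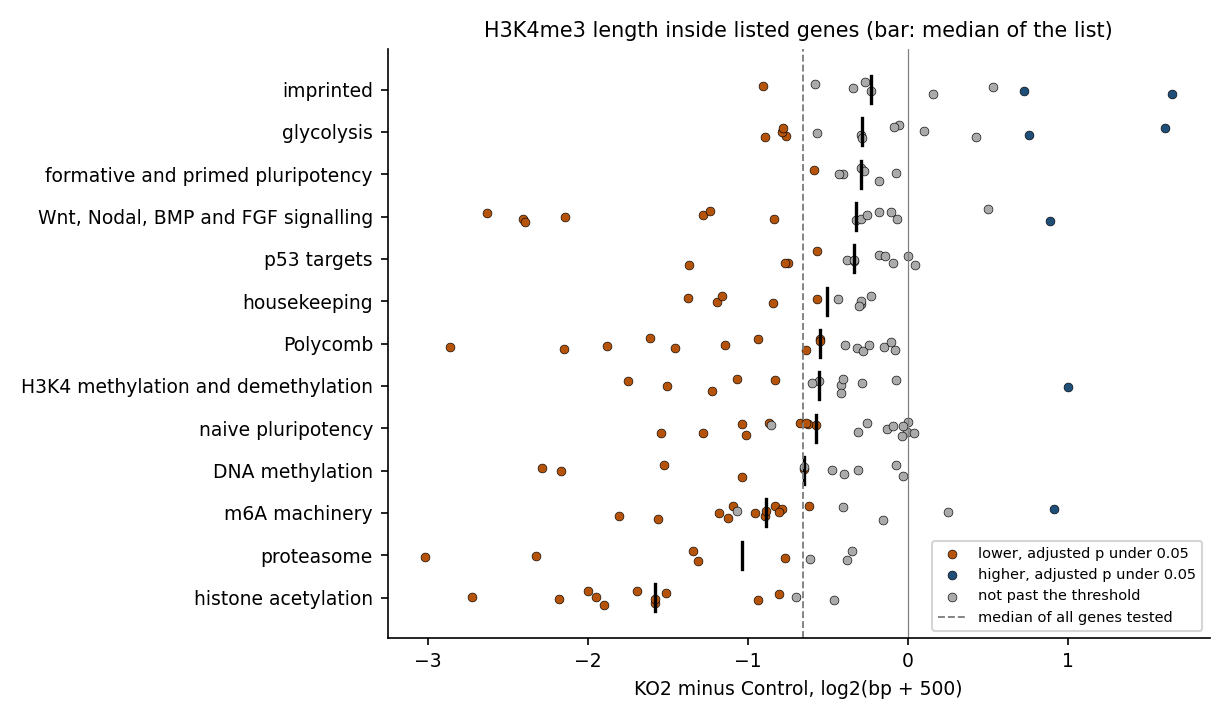
Difference between KO2 and Control in log2(bp + 500) of H3K4me3 inside the gene (horizontal axis), 1 point per tested gene, by gene list, with the list median as a black bar and the median of all 3174 genes as a dashed line at −0.66. Among these lists, each with at least 7 tested genes, histone acetylation has the lowest median, −1.58, and imprinted genes the highest, −0.23.

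Regions found in both libraries of a line were followed by whether either library of the other line had a peak there. Of 50148 regions shared by the Control libraries, 18.98% met no KO2 peak: 5.39% at gene ends, 32.8% inside genes (7726 of 23566) and 9.57% between genes. Of 45629 regions shared by the KO2 libraries, 9.85% met no Control peak: 4.28% at gene ends, 9.65% inside genes and 20.2% between genes (2083 of 10315). Regions absent from the other line were narrow, with median widths of 460 bp inside genes for Control against 832 bp for those met, and 381 bp between genes for KO2 against 656.5 bp. A region is no replicate, and these shares carry no test. Of the 7726 Control regions inside genes that KO2 lacked, 3.31% and 3.57% met an H3K27ac peak in the Control libraries, against 33.7% and 35.4% of those KO2 had. Of the 2083 KO2 regions between genes that Control lacked, 79.0% and 79.5% met an H3K27ac peak in the KO2 libraries and 12.8% and 16.4% in the Control libraries. Of the 1618 KO2 regions inside genes that Control lacked, 77.1% and 75.3% met H3K27ac in KO2 and 8.34% and 10.3% in Control. The KO2 regions that Control also had met H3K27ac of KO2 at 85.4% and 85.4% between genes and at 64.0% and 62.8% inside genes. Of the 817 Control regions between genes that KO2 lacked, 34.0% and 33.5% met H3K27ac in Control and 26.6% and 27.2% in KO2. The H3K4me3 regions found in KO2 alone thus lay mostly under H3K27ac of KO2, and those found in Control alone inside genes mostly outside H3K27ac of either line. The H3K27ac lists were longer in KO2 than in Control, and the part of this in these shares was not tested.

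**Figure D5:**
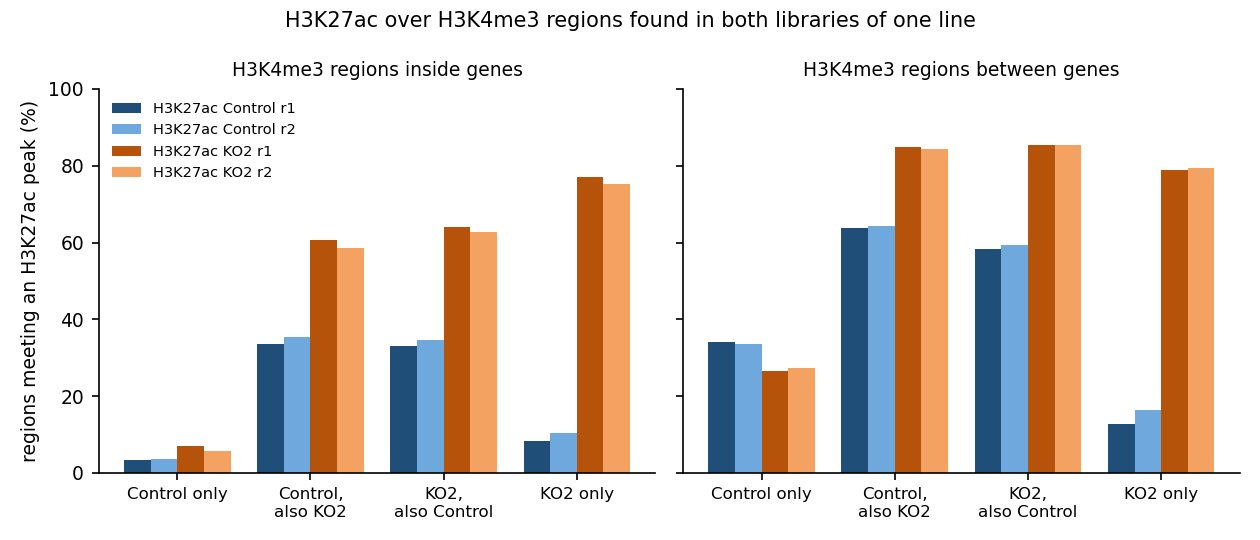
Percent of H3K4me3 regions that meet an H3K27ac peak (vertical axis) in each of the 4 H3K27ac libraries (bars), for regions found in both libraries of one line and absent from or also met in the other, inside genes (left) and between genes (right). Control-only regions inside genes are lowest, between 3.31% and 6.95% in the 4 libraries, and KO2-only regions reach 75.3% to 79.5% in the KO2 libraries.

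Between genes, 1833 regions made by merging the peaks of all 6 H3K4me3 lists were fitted in the same way. KO2 was higher at 356, which is 19.4% of those tested, and lower at 169, which is 9.22%, with a median change of 0.11. Both KO2 libraries lay above both Control libraries in 41.8% of the regions and below in 24.6%. Quantile normalization gave 311 higher and 283 lower. Without KO2 replicate 1, the library that covered more, there were 171 higher and 210 lower, so the order of the counts turned. Without Control replicate 1 there were 77 lower and without Control replicate 2 there were 94. With each library left out in turn, 131 regions were higher and 56 lower every time. Without chromosome 8 the counts were 347 and 151 of 1737. A noncoding gene overlapped 30.7% of the tested regions, 27.2% of the higher and 35.5% of the lower ones. The median H3K27ac length in the higher regions was 1201 and 1172 bp in Control and 3208 and 3214.5 bp in KO2, and in the lower regions 1787 and 1822 bp against 1840 and 1726 bp.

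The largest fall past the threshold between genes was at chr12:109523093-109532534, in the imprinted Dlk1-Dio3 cluster, 8.46 kb before the start of the maternally expressed noncoding RNA Meg3. The region held 5237 and 5773 bp of H3K4me3 in Control and 450 and 246 bp in KO2, a difference of −2.83 ± 0.210 (limma adjusted p = 0.000145). H3K27ac there was 1317 and 783 bp in Control and 0 and 195 bp in KO2. Coverage around the Meg3 start itself was 66.8% and 59.3% in Control and 14.3% and 18.3% in KO2 (−46.7 points ± 4.01, adjusted p = 0.00514), so both places fell. This interval between Dlk1 and Meg3 is known to hold the control region of the cluster's imprinting. The Meg3 call was lost without Control replicate 1 and with a window of 1 kb on each side. Next were chr12:16006987-16012813, 190.0 kb from Trib2, at 2948 and 3555 bp against 515 and 0 bp, and chr1:113946288-113952182, 1733 kb from the nearest protein-coding gene, Cntnap5a, at 2602 and 1744 bp against 251 and 0 bp. The call at the former ended with a pseudocount of 100 bp and without a minimum mean. At chr2:177316527-177325249, 110.0 kb from Gm14410, H3K4me3 went from 6157 and 6158 bp to 1550 and 847 bp. At chr6:85074248-85076743, 3.99 kb from Exoc6b, it went from 2001 and 2159 bp to 387 and 0 bp.

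The 5 largest rises lay within 10 kb of a protein-coding gene. At chr11:11903188-11908932, 5.04 kb from Ddc, the gene of DOPA decarboxylase, H3K4me3 was at 0 and 209 bp in Control and at 3020 and 3451 bp in KO2 (2.65 ± 0.204, adjusted p = 0.000145). H3K27ac in the same region was 447 and 205 bp in Control and 3019 and 3167 bp in KO2. At chr19:3839861-3845555, 6.03 kb from the choline kinase gene Chka, H3K4me3 was 258 and 0 bp against 3593 and 2386 bp, a call that ended with a pseudocount of 100 bp. The regions chr11:55437523-55442577 (4.06 kb from Atox1), chr11:89027713-89031575 (3.604 kb from Dgke) and chr9:75372807-75377323 (9.46 kb from Mapk6) held at most 401 bp in Control and at least 1805 bp in KO2. All 5 had more H3K27ac in both KO2 libraries than in either Control library, an order that was not counted over all regions. Over all 1833 tested regions the median H3K27ac length was also higher in KO2, at 2290 and 2250 bp against 1359 and 1302 bp in Control. At the Dgke and Mapk6 regions H3K27ac was at 0 in both Control libraries.

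Around starts, changes per gene were fewer and less stable. Coverage of the window of 2 kb on each side was fitted for 13337 genes, and KO2 was lower at 775, which is 5.81% of those tested, and higher at 177, which is 1.33%, with a median difference of −2.34 points. Both KO2 libraries lay above both Control libraries in 16.3% of the genes and below in 38.4%. After quantile normalization 405 were lower and 406 higher, and 390 and 170 of the original calls remained. With the window narrowed to 1 kb on each side no gene passed in either direction, and 1193 were lower and 975 higher at an unadjusted p under 0.05. Without Control replicate 1 the calls shrank to 2 lower and 1 higher, without Control replicate 2 to 17 and 1, and without KO2 replicate 2 to 50 and 28. With each library left out in turn, 2 genes were lower every time, Gm42166 and Eid3, and Gm36210 was higher every time. The window of Gm36210 was placed by the knockout lists alone, as described below. Without chromosome 8, where 11.97% of 735 tested genes were lower, the counts were 687 and 173. On chromosome 18, where no start was listed and each window was placed by the mark itself, 14.8% of 385 were lower.

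Gm42166, a predicted gene, had the largest fall past the threshold, from 92.9% and 90.4% in Control to 27.9% and 22.4% in KO2 (−66.5 points ± 3.64, adjusted p = 0.00145). Eid3, which encodes an inhibitor of EP300 with a role in the SMC5-SMC6 complex, went from 63.8% and 73.7% to 14.6% and 11.5%. Aim2, a sensor of cytosolic DNA, had 71.5% and 72.6% against 22.3% and 5.0%, and Sulf1, an extracellular heparan sulfatase, 92.9% and 82.8% against 38.9% and 24.4%. Large falls were also found at Gm33153 and Zmat4 (both chromosome 8), Snx2, Tnfsf13 and Zmym1, with Control means from 54.5% to 91.6% and KO2 means from 0% to 44.3%. Eid3, Sulf1, Snx2, Zmat4 and Zmym1 had no listed start, so their window was placed where H3K4me3 was longest inside the gene.

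Gm36210, a predicted gene, rose from 0% in both Control libraries to 44.6% and 48.3% in KO2 (46.4 points ± 2.70, adjusted p = 0.00145). With Control at 0%, the knockout lists alone placed this window and carried the gene past the minimum mean of 5%. The call of Gm36210 is thus partly set by that choice and is no independent evidence of a rise. Pgpep1l, a pyroglutamyl-peptidase-like gene, had 32.3% and 31.0% in Control and 100% and 82.4% in KO2, the largest rise past the threshold (59.5 points ± 6.45, adjusted p = 0.00681). H3K27ac of that window stood at 8.90% and 12.9% in Control and 93.2% and 93.0% in KO2. Ldhb, the heart-type subunit of lactate dehydrogenase, had 43.9% and 36.3% against 88.5% and 74.5%, and its H3K27ac went from 0% in both Control libraries to 83.3% and 79.7%. Ly75, an endocytic receptor of dendritic cells, had 39.9% and 34.1% against 76.5% and 81.1%, and St8sia1, the synthase of ganglioside GD3, 33.9% and 34.4% against 74.2% and 73.0%. Sparcl1, Cdh4, Cidea, Tmem45b, Ackr3, Car8 and Kirrel3 made up the 12 largest rises, with Control means from 4.65% to 38.8% and KO2 means from 42.6% to 86.5%. Gm36210, Sparcl1, Cdh4, Cidea, Tmem45b, Car8 and Kirrel3 had no listed start either, so their windows too were placed by the mark inside the gene. Apart from Gm36210, the rises lost their call when either Control library was left out, and their limma adjusted p was at most 0.214 over all settings tried.

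Counts in the gene lists were small around starts, where 5.81% were lower and 1.33% higher overall. Of 38 tested genes of Wnt, Nodal, BMP and FGF signalling 7 were lower and 2 higher, and after quantile normalization 5 and 5. Lefty1, a secreted inhibitor of Nodal, went from 95.7% and 96.0% to 60.3% and 39.1% (−46.2 points ± 6.90, adjusted p = 0.0137), and Lefty2 from 100% in both to 79.4% and 69.0%. Id1, a target of BMP signalling, went from 43.5% and 34.3% to 4.5% and 12.6%. Of 23 genes of the m6A machinery 4 were lower, Mettl3 and the following 3, and after quantile normalization 3. Mettl14, the partner subunit of METTL3, had 74.6% and 67.8% against 44.3% and 46.2%, Ythdf3 92.4% and 86.2% against 59.1% and 48.1%, and Mettl4 79.1% and 85.7% against 50.3% and 52.0%. Of 77 ribosomal protein genes 6 were lower, and after quantile normalization 1 was lower and 2 were higher. Of 32 proteasome genes 2 were lower and 1 was higher, and after quantile normalization 1 was higher. The medians of these lists were −1.97 and −7.57 points. Among 24 genes of H3K4 methylation 2 were lower, Ash2l (chromosome 8; 97.2% and 100.0% against 73.2% and 66.0%) and Setd1a (96.3% and 91.0% against 79.2% and 80.3%), the latter not after quantile normalization. Of 16 interferon-response genes 2 were higher and 1 lower, and after quantile normalization 2 were higher and 0 lower. Oas1a went from 0% in both to 32.6% and 32.9%, and Oas2 from 37.1% and 19.7% to 67.8% and 63.3%. Irf9 (chromosome 14) went from 45.8% and 41.7% to 30.4% and 24.6%. Its call was lost after quantile normalization and with Control and KO2 libraries alone. No member passed limma's adjusted threshold among 31 Polycomb, 25 histone acetylation and 24 Hox genes, of which 5, 7 and 4 were lower and 2, 0 and 0 higher at an unadjusted p under 0.05. Over all 13337 genes 2651 were lower and 764 higher at that threshold. Quantile normalization called 2 Polycomb genes, 1 histone acetylation gene and 0 Hox genes higher. Dppa3, a maternal factor gene, was the 1 call among 29 naive pluripotency genes, where quantile normalization gave 4 higher, at 28.7% and 24.7% against 53.9% and 49.5%. The windows of Lefty1, Lefty2, Id1, Mettl14, Ythdf3, Ash2l, Oas2 and Dppa3 were placed by the mark inside the gene, and those of the other named members at a listed start. Each of these named list members lost its call when either Control library was left out.

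H3K27ac in the same windows was higher in KO2 at 8224 of 9310 genes tested (88.3%) and lower at 7 (0.0752%), with a median difference of 17.9 points. Both KO2 libraries lay above both Control libraries in 97% of these genes and below in 0.14%. After quantile normalization 635 were higher and 530 lower. Among the 775 genes lower in H3K4me3 the median H3K27ac coverage was 13.3% in Control and 28.6% in KO2, and among the 177 higher ones 1.66% and 31.3%. Over all 13337 genes tested for H3K4me3 it was 5.39% and 21.5%.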

How the data were processed

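The authors deposited MACS2 peak lists on mm10, made after CASAVA, Trimmomatic 0.38 and Bowtie 1.2.2, per the submitters' processing notes. The sources used here do not give how input or spike-in chromatin entered, and the 6 input libraries were not analysed here. In the deposited lists the −log10 q-value of every peak was at least 2.00. The fold enrichment that the authors deposited for each peak, a value within its own list, was not used. Only peak positions were used, and the deposited −log10 q-value only in a stricter alternative (at least 5). The comparison, its members and the gene lists were chosen with earlier results of these data known. Windows of 4001 bp were centred on the first listed RefSeq start (17495 genes) or, without one, on the stretch inside the gene with most H3K4me3 (3153 genes), so a name says where a window lies. Length inside genes left out 2.5 kb around gene ends and around the gene's own window centre, and peaks between genes were merged within 1 kb. The mark of any other start further inside a gene counts as inside the gene. limma 3.58.1 (R 4.3.3; trended spread) was fitted over the 6 H3K4me3 libraries on percent covered (mean at least 5%) or on log2(bp + 500) (mean at least 1000 bp), with Benjamini-Hochberg adjustment at 0.05, and was tested on simulated data. Genes were named by rule: Mettl3, the largest changes past the threshold without overlap (12 each way around starts, 8 inside genes, 5 between genes) and the 3 largest of each list; some of these are not reported here. Counting error of peaks is unknown because the lists carry no depth. Tables were read with Python 3.11.15, pandas 2.3.3, numpy 2.4.6 and scipy 1.17.1.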

Additional observations from a re-analysis of the deposited data

Results flagged for a closer look

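In 3 named genes the KO1 libraries lay on the other side of Control from the KO2 libraries, and the difference between the lines was not tested. Aim2 promoter coverage averaged 72.1% in Control, 83.9% in KO1 (KO1 minus Control 11.9 points) and 13.7% in KO2. Tubb3, on chromosome 8, averaged 42.0% in Control, 19.6% in KO1 (−22.4 points) and 58.1% in KO2. Usp29 had 1126 bp inside the gene in Control, 924.5 bp in KO1 (−201.5 bp) and 2203 bp in KO2.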

How the results depend on the processing

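The direction of the change in covered length inside genes held in every setting, with log2 ratios from −0.916 to −0.534 when each library was left out. The same ranges were −0.458 to −0.195 over the genome, −0.200 to −0.0539 at gene ends and 0.0921 to 0.404 between genes, where the end named first is without KO2 replicate 1 in each case. With gene ends at 1 kb the log2 ratio there was −0.000123. The log2 ratio of peak numbers was −0.140 at a −log10 q of at least 5, 0 with lists of equal length, which sets it, and 0.00338 after merging peaks within 1 kb, a reversal whose cause was not tested. The share of Control regions absent from KO2 was 30.3%, 14.6%, 13.5% and 10.1% (inside genes 51.6%, 28.8%, 25.9% and 20.5%) when at least 50% of a region had to be covered, at a −log10 q of at least 5, with lists of equal length and after merging. The share of KO2 regions absent from Control was 16.3%, 10.6%, 12.3% and 9.38% (inside genes 16.5%, 11.6%, 12.7% and 10.9%).

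Promoter calls were 94 higher and 368 lower with Control and KO2 libraries alone, 406 and 405 after quantile normalization, 298 and 1407 with the best window inside the gene, 0 and 0 with 1 kb on each side by limma, and 485 lower at a −log10 q of at least 5. Leaving out each library gave 1 to 94 higher and 2 to 456 lower, where a lone library is assumed to vary like the other groups. Inside genes, quantile normalization gave 952 higher and 866 lower and no minimum mean 435 higher, and leaving out each library gave 108 to 212 higher and 984 to 2026 lower. Between genes, quantile normalization gave 283 lower, no minimum mean 551 higher and a −log10 q of at least 5 gave 102 lower, and leaving out each library gave 171 to 347 higher and 77 to 210 lower. H3K27ac in the same windows gave 635 higher and 530 lower after quantile normalization, and 3 to 7 lower with each library left out. Among named genes 3 reversed: Psmd1 with the best window (−5.74 points), and Sox11 (0.13) and Tigar (0.048) inside the gene after quantile normalization. Of the other values for named genes and regions 1238 kept direction and side of the threshold and 342 kept direction alone. The counts without chromosome 8 were chosen after seeing the data.

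The labels number replicates 1 and 2 and state no shared batch, so the numbers were not taken as pairing the samples. Deviations of same-numbered libraries correlated at 0.00458 to 0.0108 around starts, 0.121 to 0.347 inside genes and 0.0448 to 0.162 between genes. With the replicate number as a block the calls were 160 higher and 744 lower around starts, 188 and 1751 inside genes, 363 and 181 between genes, and 8189 and 7 for H3K27ac. Read depth is unknown, so a missing peak cannot be told apart from a shallower library.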
